A study of Pan troglodytes and Macaca mulatta with 12 samples.

Results

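Gene expression was compared among 6 lymphoblastoid cell lines of rhesus macaque, each line from a different animal. They make up 6 of the 12 samples of the series, and membership was set by the species given in the labels. Lymphoblastoid lines are B lymphocytes kept in continuous culture after immortalisation. They keep an activated B cell state, make immunoglobulin and present antigen, and are grown in suspension. Lines from different individuals can differ in interferon response, immunoglobulin and proliferation genes, and in genes on or off in a single clone.

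All 6 lines had no treatment and were grown in RPMI-1640 medium with serum, glutamine and antibiotics, and total RNA was taken from them. Lines 1, 2, 3 and 6 came from males and lines 4 and 5 from females. How the lines were immortalised, their time in culture and their clonality were not given in the sources used here. Each line has 1 library, so line, culture and library preparation cannot be told apart, and every spread below holds all of them. Lines were numbered in the order of the labels, and the numbers pair nothing.

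Libraries held 1801830, 2103199, 2122502, 3352686, 3759443 and 4600137 counts in lines 1 to 6. The 6 lines together had counts on 107490 exons of 15673 gene identifiers. Neither gene table at hand paired these identifiers with symbols (0 of 15673 matched), so genes are described by position on 23 chromosomes in the coordinates of the deposited files, whose genome build was not given in the sources used here. The positions are those of the exon definitions used for counting, whose numbered chromosomes run to 22, and may not be macaque chromosomes. Neighbours, distances, windows and gene density below are in the same coordinates. Gene order in macaque was not checked. For the same reason the interferon, immunoglobulin, cell cycle and cell type marker lists were not run, and the B cell label could not be checked against its markers.

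Most genes differed among the lines by more than counting noise, and mostly by modest amounts. Of 8136 genes with enough counts for testing, which held 98.1% of all counts, 7449 (91.6%) varied beyond Poisson noise in an edgeR likelihood fit without biological dispersion (Benjamini-Hochberg adjusted p under 0.05). The SD of log2 CPM (CPM, counts scaled to a common library size with TMM factors) over the 6 lines had a median of 0.41. Its 5th and 95th percentiles were 0.17 and 0.96. The highest line exceeded the lowest by a median of 2.12-fold, and 3521 genes (43.3%) stayed within 2-fold. An SD of at least 1 was found for 369 genes (4.54%), and a range of at least 4-fold for 883 genes (10.9%). The median tagwise biological coefficient of variation was 0.317. The median SD, which holds counting noise as well, fell from 0.46 in the lowest of 4 equal classes by mean CPM to 0.36 in the highest. From the lowest class to the highest, the median tagwise coefficient was 0.328, 0.331, 0.312 and 0.299. The share of genes with an SD of at least 1 was 3.59%, 6.29%, 4.52% and 3.74%.

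Some genes had nearly the same level in all lines. They were picked for the smallest SDs, so their tests show nothing about the lines. The gene of smallest SD among those with at least 20 CPM and 2 counted exons lay at chr16:74239185-74248829. It stood at 187, 184, 191, 190, 185 and 193 CPM in lines 1 to 6, a range of 1.05-fold. A second, at chr6:31762711-31779172 with 19 counted exons, ran from 83.8 CPM in line 1 to 93.3 CPM in line 4.

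Lines 5 and 6 were the most alike, and lines 1 and 6 the least. Spearman correlations of log2 CPM over the tested genes, which are not independent replicates, ran from 0.841 between lines 1 and 6 to 0.952 between lines 5 and 6. The median gene differed 1.45-fold between lines 1 and 6, where 334 genes were at least 4-fold apart. Between lines 5 and 6 the median difference was 1.20-fold and 57 genes were 4-fold apart. Lines 2 and 3 (0.937, 58 genes) and lines 1 and 4 (0.929, 122 genes) came next.

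Principal component 1 held 42.2% of the variance and set lines 5 and 6 (scores of 34.4 and 45.2) against lines 1 to 4 (-35.0, -10.4, -15.9 and -18.3). Component 2 held 25.2% and ran from line 3 (-41.3) to lines 1 and 4 (25.2 and 20.7). Component 3 held 13.8% and set line 4 (-31.2) against lines 1 and 2 (20.3 and 14.9). Component 1 moved with depth. Its Pearson r with log10 of the library total was 0.856 over 6 lines (exact two-sided permutation p = 0.0208, adjusted p = 0.0458 over 3 relations). Spearman's rho was 0.771 (exact p = 0.103, adjusted p = 0.154). Without lines 1 and 6, the farthest from the median total, r was 0.618, so the relation rests in part on those lines. With the counts of every library thinned to 1801830, r was 0.867. Over the 500 genes of largest SD alone r was 0.668 and missed the threshold (exact permutation p = 0.160). Component 2 had an r of 0.279 with depth (exact permutation p = 0.593, adjusted p = 0.593, rho = -0.0857, exact p = 0.919, r = 0.805 without lines 1 and 6). The part of depth in component 1 was not tested.

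**Figure D1:**
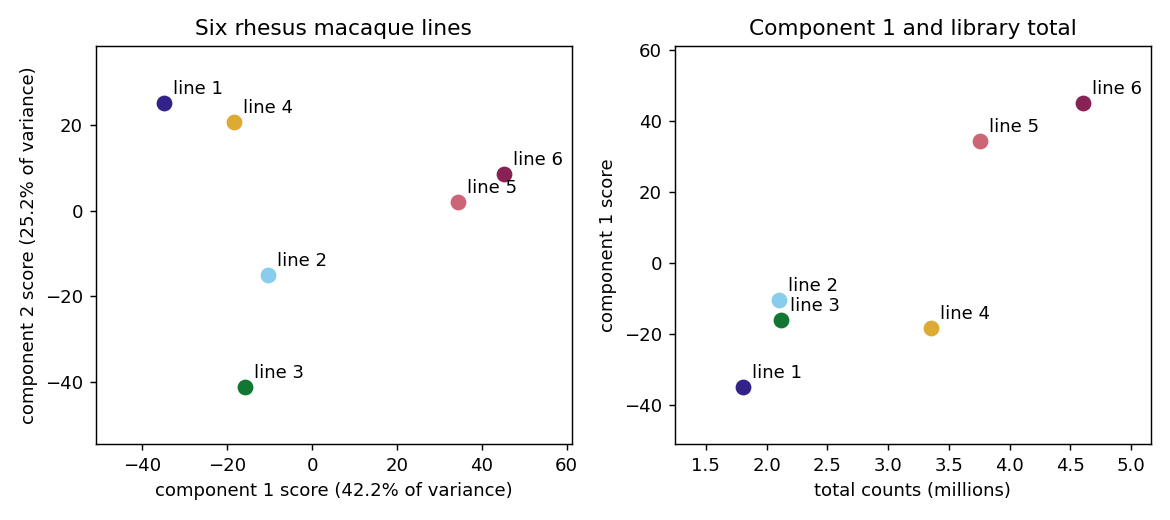
Left, scores of the 6 lines on principal components 1 and 2 of log2 CPM over 8136 genes. Right, component 1 against total counts. Each point is 1 library. Lines 5 and 6, the deepest libraries, lie at 34.4 and 45.2 on component 1, above all others.

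The most abundant genes spread among lines about as much as other genes. The 20 genes of highest mean CPM took between 5.84% of counts in line 6 and 7.43% in line 1. Of these, 6 were among the top 20 of every line, and 41 genes reached the top 20 of at least 1 line. Their SDs ran from 0.23 to 1.03 with a median of 0.38, against 0.41 for all tested genes and 0.36 for the highest of the 4 classes by level. Identity by symbol is missing, so their functions are not described.

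The gene at chr5:149762877-149767080 was the most abundant on the CPM scale, with 5 counted exons. It stood at 8212, 7400, 6819, 6684, 9309 and 4910 CPM in lines 1 to 6, a mean of 7222 ± 1494 (SD, n = 6). The next, at chr5:180596536-180603512, had 7107, 8970, 7918, 6224, 6756 and 4219 CPM. Line 6 was lowest for both. Another, at chr17:35963550-35975250, stood between 4056 CPM in line 6 and 7609 CPM in line 4. A 1-exon gene at chr14:105391493-105391887 came next and ran the other way, with 4375, 2706, 5594, 3832, 5027 and 7267 CPM. Line 6 was highest and line 2 lowest there, a 2.68-fold range.

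A few abundant genes varied strongly. The 1-exon gene at chr2:84987024-84987310 had 4887, 1566, 2654, 2833, 654 and 1221 CPM (SD 1.03), so line 1 stood 7.47-fold above line 5. The gene at chrX:153230091-153244346, with 30 counted exons, had 5113, 2784, 2719, 3510, 1197 and 1690 CPM (SD 0.75). The 1-exon gene at chr19:12763310-12765124 had 3561, 2214, 1998, 3368, 988 and 1686 CPM (SD 0.68). In all 3 genes line 1 was highest, line 4 next and line 5 lowest. One-exon genes can share reads with near-identical copies elsewhere, which the deposited counts cannot separate.

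Ranking per kilobase of counted exon changed the list. Of the 20 genes highest on that scale, 7 were also in the CPM list, 12 had 1 counted exon, and 11 were in the top 20 of every line. The chr14 gene named above led, at a mean of 12152 ± 3966 CPM per kilobase (SD, n = 6). The least steady of these 20 lay at chr14:24170017-24173313. Its level per kilobase was 1104, 3375, 4443, 6041, 706 and 1826 in lines 1 to 6 (SD 1.21), lowest in line 5 and highest in line 4.

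The 25 most variable genes, among 6211 tested at 20 CPM or more with at least 2 counted exons, had SDs of 1.95 to 3.36 and ranges of 22.3-fold to 335-fold. Fold ranges and gaps come from log2 CPM with a prior count of 2, so at low levels they are smaller than the ratio of the CPM values printed. They lay on 13 chromosomes. The highest line was line 1 for 7 of them, line 4 for 6, line 6 for 5, line 5 for 3, and lines 2 and 3 for 2 each. Line 6 was the lowest for 11. Over the 369 genes with an SD of at least 1, line 6 was the lowest for 99, line 5 for 75, line 1 for 73 and line 3 for 67. Line 1 was the highest for 118 of those genes and line 4 for 80.

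The gene of largest spread, at chr4:1150725-1155862, had 487, 19.8, 12.1, 1657, 13.3 and 4.27 CPM in lines 1 to 6. It was high in lines 1 and 4 and low in the other 4. A gene at chr1:31891787-31940415 with 54 counted exons had 691, 80.5, 49.7, 1051, 9.89 and 15.4 CPM. Again lines 1 and 4 were highest and lines 5 and 6 lowest. A gene at chr22:41877479-41889191 had 682, 63.2, 15.0, 156, 3.90 and 8.53 CPM, with the same lines at both ends.

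Other highly variable genes ran in the opposite sense. The gene at chr21:45131079-45155169 had 11.8, 141, 134, 18.0, 647 and 677 CPM, and that at chr4:71740131-71751114 had 17.7, 193, 343, 50.1, 977 and 1272 CPM. In both, lines 5 and 6 were highest and lines 1 and 4 lowest. The gene at chr1:41744623-42156965 had 15.3, 531, 348, 22.7, 539 and 264 CPM, low in lines 1 and 4 only. The gene at chr6:31885376-31890814 followed neither order, with 17.1, 173, 180, 13.6, 7.28 and 3.84 CPM. There lines 2 and 3 stood far above the other lines. The gene at chr21:44530191-44540756 split lines 5 and 6, at 280 and 13.0 CPM.

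**Figure D2:**
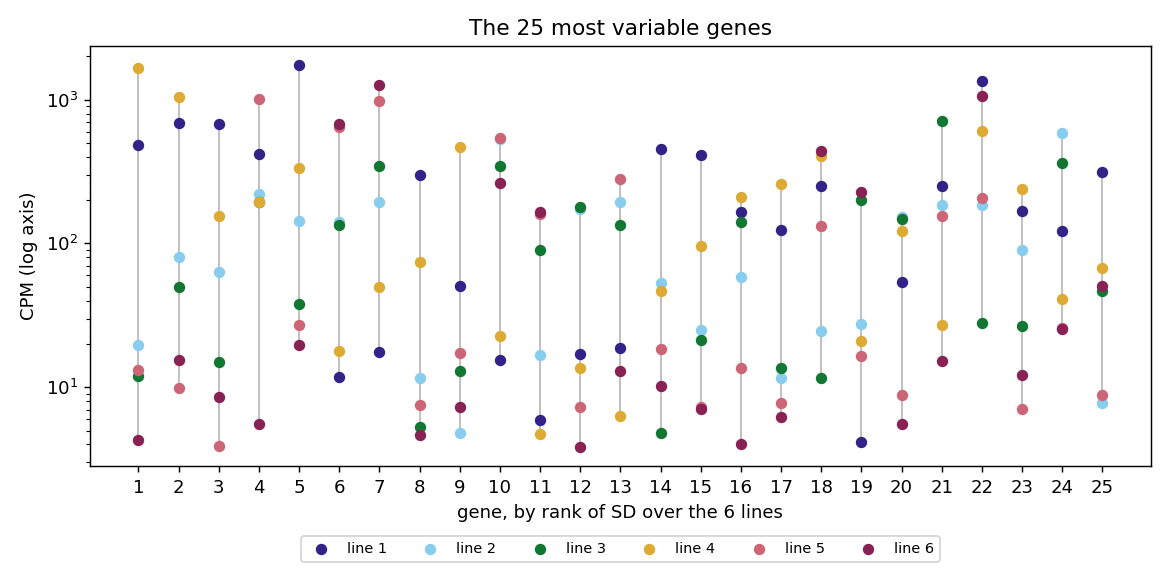
CPM on a log axis of the 25 genes of largest SD of log2 CPM over the lines, by rank. Each point is 1 line and the grey bar spans the lowest to the highest line. The first gene runs from 4.27 CPM in line 6 to 1657 CPM in line 4.

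Single lines also stood apart. A line was at least 2-fold above all 5 others for 146 of the 6211 genes (2.35%) and 2-fold below all others for 204 (3.28%). Line 1 held 56 of those above and 63 of those below, line 4 held 36 and 17, and line 6 held 23 and 34. Line 3 held 10 above and 66 below. Line 2 held 10 and 3, and line 5 held 11 and 21. At 4-fold, line 1 was apart above for 13 genes and below for 17, against at most 5 in either direction for any other line.

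Among the tested genes, the 2 largest gaps upward were in lines 1 and 4. ENSG00000197956, at chr1:151773699-151775341, had 1233, 116, 52.6, 92.4, 93.9 and 43.9 CPM, so line 1 was 10.6-fold above the next line. ENSG00000166963, at chr15:41590448-41611110, had 50.8, 4.82, 13.0, 465, 17.4 and 7.25 CPM, so line 4 was 9.06-fold above the next. Without line 4 the SD of this gene fell from 2.34 to 1.25.

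The largest gap among the tested genes was downward in line 6. ENSG00000115590, at chr2:101974738-102011312, had 417, 221, 194, 195, 1011 and 5.54 CPM, and line 6 was 31.3-fold below the next line. Its SD was 2.50 with all lines and 1.02 without line 6. Line 5, otherwise most like line 6, was the highest. ENSG00000126882, at chr9:133123287-133141727, had 10.6, 93.5, 145, 128, 114 and 118 CPM, so line 1 was 8.33-fold below the next line and the other 5 lay close together.

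Lines 2, 3 and 5 also had gaps, and line 3 held the most genes 2-fold below all others (66). Line 2 stood 4.38-fold above the next line at chr19:11548058-11549494, with 258 CPM against 6.49 to 58.4 elsewhere. Line 3 stood 6.48-fold below the next line at chr10:72030126-72032537. The levels there were 1354, 185, 27.99, 604, 206 and 1057 CPM, and the SD was 2.06 with line 3 and 1.32 without it. Line 5 stood 6.27-fold above at chr3:171667255-171727571, with 195 CPM against 7.67 to 30.5.

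The filter on low counts asked for counts in every line, so genes off in 1 line are not among the 8136, and no tested gene was at 0 by construction. Outside it, 83 genes had a mean of at least 20 CPM and 2 counted exons, and 15 of these were at 0 in at least 1 line. Line 1 was the highest for 21 of the 83, line 4 for 19, line 6 for 15, lines 2 and 3 for 11 each and line 5 for 6. They were ranked by mean CPM after their values were seen and carry no test.

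The first lay at chr1:43543109-43561366, with 21 counted exons, and had 0, 171, 83.0, 250.3, 391 and 541 CPM in lines 1 to 6. Line 1 had 0 counts, against 172 to 2536 in the others, so line 6 was at least 305-fold higher than line 1, with line 1 set at the 3 counts per library that a count of 0 allows (counting error only). The next, at chr16:76408319-76571504, had 770, 1, 6, 2475, 0 and 0 counts, so it was on in lines 1 and 4 and near 0 in the others. A gene at chr5:145949260-146238501 had 136, 0, 0, 1057, 3 and 0 counts, again in lines 1 and 4. A gene at chr1:151800220-151804930, close to the chromosome 1 genes above, had 1180, 76, 14, 223, 7 and 24 counts. Line 6 stood alone at chr2:33099480-33478080, with 6, 2, 4, 1, 7 and 740 counts. It also did so at chr20:45040281-45242991, with 4, 1, 2, 14, 2 and 620 counts. The gaps ranked above leave these genes out.

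Among exons for which at least 10 counts were expected in a line from the other lines, 12 of 191240 exon and line combinations (0.00627%) had no count. Lines 2 and 3 held 4 each, line 4 held 3 and line 1 held 1. Loss of a single exon in a line whose gene was on was rare at this depth.

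The most variable genes could be grouped by profile, though membership depended on the grouping method. Of the 6211 genes at 20 CPM or more with 2 or more counted exons, 292 had an SD of at least 1. Average-linkage grouping of them on 1 minus Pearson r over the 6 lines, with the tree divided at a height of 0.4, gave 7 groups of at least 10 genes, which held 221 genes (75.7%). The groups were made from the same values that describe them, so they carry no test, and each correlation rests on 6 libraries. With Spearman in place of Pearson correlation, at most 76 of 101, 20 of 42, 20 of 23, 9 of 18, 9 of 15, 3 of 11 and 5 of 11 genes stayed together, in the order of groups below. With the tree divided at 0.3 the numbers were 59, 42, 20, 13, 9, 8 and 7. The smaller groups in particular are therefore loose. Without gene names they are described by line and position alone.

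The largest group, of 101 genes on 22 chromosomes, was high in lines 1 and 4 and low in lines 5 and 6. Mean deviations from the 6-line mean were 1.57, -0.02, -0.23, 1.34, -1.20 and -1.45 (log2 CPM) in lines 1 to 6. The gene closest to its mean profile, at chr1:154319363-154376502, had 468, 102, 67.1, 259, 29.9 and 22.4 CPM. An abundant member at chr10:17311250-17319591 had 5225, 581, 633, 2794, 137 and 534 CPM. Another, at chrX:47326634-47331132, had 4163, 1720, 1560, 2188, 601 and 619 CPM.

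The next group, of 42 genes, was low in line 1 (-2.16) and high in lines 5 and 6 (1.04 in line 5). Its closest member, at chr2:182030400-182108499, had 8.85, 44.8, 41.5, 25.5, 77.3 and 86.6 CPM. A group of 23 genes was high in line 1 (2.07) and low in lines 3 and 6 (-1.37 and -1.43). Its closest member lay at chr5:1106464-1165172, with 318, 139, 21.7, 80.1, 74.4 and 25.2 CPM.

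A group of 18 genes ran from -1.58 in line 3 to 1.49 in line 6. Its genes had a median of 4832 counted exon bases, against 2188 for all 6211 genes. Its closest member, at chr6:111037874-111243533, had 73.2, 42.4, 26.5, 122, 120 and 163 CPM. After the length and gene density gradients described below were taken out, 8 of the 18 still met the entry criteria and at most 5 stayed together. The part of the gradients in this group was not tested further.

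The 3 smaller groups held 15, 11 and 11 genes. The first was low in lines 3 and 4 (-1.27 and -1.13) and high in line 5 (1.37). The second was high in line 1 (1.62) and low in line 3 (-1.85), and the last was low in line 1 (-2.08) and high in line 4 (1.13). In the last of these, a gene at chr17:35038277-35046404 had 5.90, 152, 93.2, 283, 52.0 and 95.7 CPM.

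**Figure D3:**
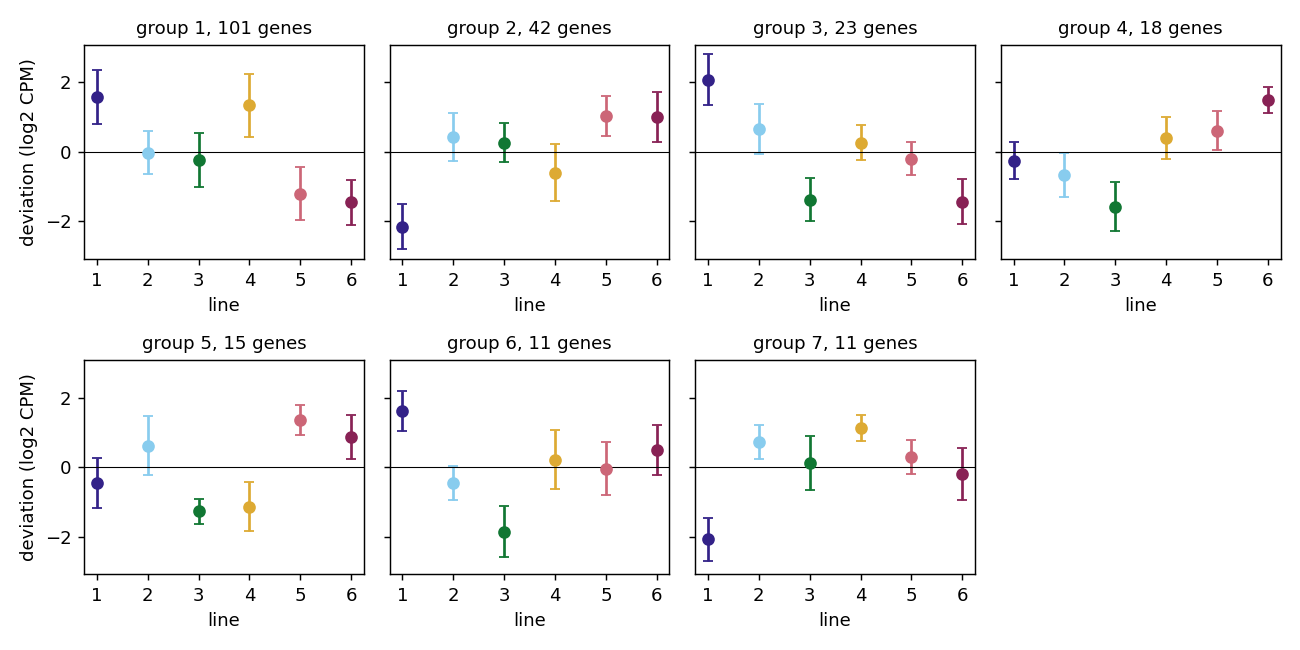
Deviation from the 6-line mean (log2 CPM) in each line for the 7 groups of co-varying genes. Points are means and bars are SDs over the genes of a group, which are not replicates. The group of 101 genes is highest in line 1 (1.57) and line 4 (1.34).

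Adjacent genes that lay close without overlapping had higher correlations over the lines than distant ones. The median Pearson r over the 6 lines between adjacent tested genes was 0.341 for 408 pairs up to 1 kb apart and 0.236 for 1379 pairs 1 to 10 kb apart. For 263 overlapping pairs it was lower, at 0.184. It was 0.147 at 10 to 50 kb and 0.0674 for 593 pairs over 1 Mb apart, and -0.00163 over all pairs on different chromosomes. With the length and gene density gradients taken out, the first 2 values were 0.188 and 0.136, and that of overlapping pairs 0.0488. These correlations share 6 libraries, and reads from overlapping or antisense neighbours cannot be told apart without strand.

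Among the 292 most variable genes, 19 adjacent pairs lay within 200 kb, and 8 of them had an r of at least 0.8. Over all adjacent tested pairs, the share at that level was 13.5% up to 1 kb, 8.48% at 1 to 10 kb, 7.36% at 10 to 50 kb, 6.95% at 50 to 200 kb and 9.89% for overlapping pairs. The 19 pairs join genes picked for their spread, so the shares are set side by side only as a description. The 8 pairs formed 7 clusters of 15 genes, so genes of a cluster were picked for their correlation. On chromosome 1, ENSG00000197956 lay beside a gene at chr1:151782713-151789236 that had 1740, 143, 37.6, 334, 27.1 and 19.6 CPM, and another gene at chr1:151786449-151787590 that had 39.6, 16.4, 7.72, 95.5, 10.1 and 8.53 CPM. The last pair overlap in position. Line 1 was highest for the first 2 and line 4 for the last.

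On chromosome 10, the gene low in line 3 lay beside one at chr10:72102565-72192203, which had 251, 24.6, 11.6, 405, 133 and 442 CPM. Both were low in lines 2 and 3. On chromosome 11, adjacent genes at chr11:17472018-17522539 and chr11:17530123-17625273 were both highest in line 1 (208 and 298 CPM) and lowest in line 5 (8.84 and 4.68 CPM). On chromosome 22, adjacent genes at chr22:49312460-49315049 and chr22:49315704-49317479 were both lowest in line 4, at 5.04 and 5.36 CPM. Their other lines ran from 17.4 to 65.6 CPM and from 32.0 to 67.6 CPM. On chromosome 14, genes at chr14:93470266-93493520 and chr14:93646832-93652786 were both lowest in line 1, at 14.8 and 17.7 CPM.

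Long and short genes shifted in opposite directions, least in lines 1 and 4. In the longest decile of genes (4988 or more counted exon bases), the median deviation from the 6-line mean was -0.06, -0.16, -0.31, 0.05, 0.18 and 0.31 (log2 CPM) in lines 1 to 6. In the shortest decile (572 or fewer) it was 0.03, 0.13, 0.23, -0.05, -0.14 and -0.17. The medians of all tested genes lay between -0.01 and 0.01. The small shift of the longest genes in line 4 turned to -0.02 when line 3 was left out and was not stable. In line 6, 73.1% of the longest genes were above their mean, against 21.3% in line 3.

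Gene density showed a matching order. In the decile of genes with the most tested neighbours within 1 Mb, deviations were 0.07, 0.09, 0.20, 0.06, -0.18 and -0.23, and in the sparsest decile -0.07, -0.11, -0.20, -0.01, 0.10 and 0.28. Length and density gradients ran together, so lines 3 and 6 stood at opposite ends of both. On chromosome 4, with 273 tested genes, line 3 stood at -0.14 and line 6 at 0.28. On chromosome 16, with 401, line 3 stood at 0.14 and line 6 at -0.14. Over windows of 30 adjacent genes, medians ran from -0.53 to 0.53, and from -0.45 to 0.41 with both gradients taken out.

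The longest-gene deviation moved with depth (r = 0.870 over 6 lines, exact two-sided permutation p = 0.0306, adjusted p = 0.0458, rho = 0.771, exact p = 0.103, adjusted p = 0.154). Without lines 1 and 6, r was 0.950. The smallest p that 720 permutations could give is 0.00139. The part of depth or library preparation in these gradients was not tested.

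**Figure D4:**
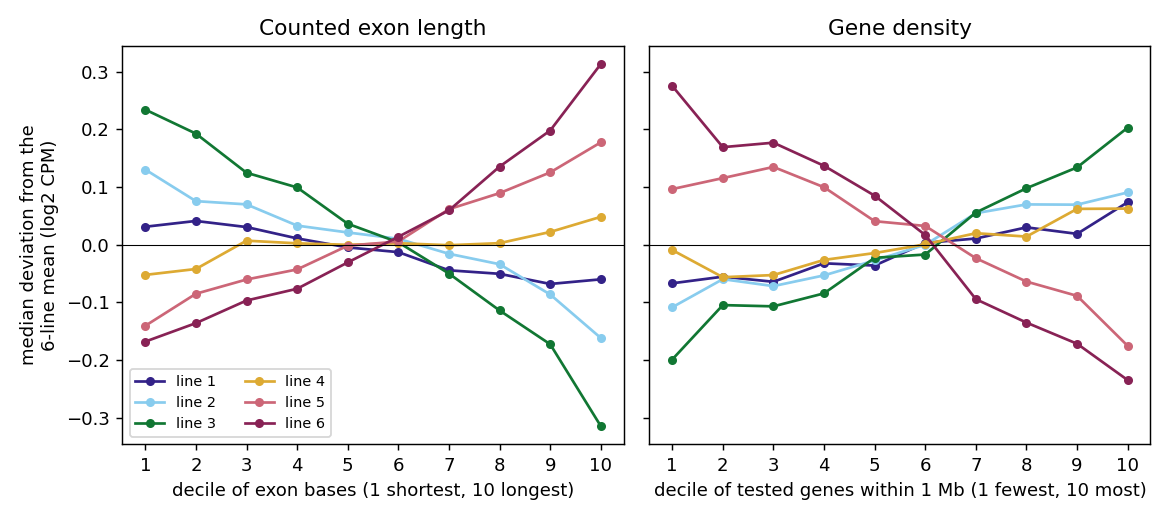
Median deviation from the 6-line mean (log2 CPM) by deciles of counted exon length (left) and of the number of tested genes within 1 Mb (right), 1 curve per line. In the longest decile, line 3 is at -0.31 and line 6 at 0.31.

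Exon shares often varied beyond counting noise, mostly by modest amounts, and lines 5 and 6 resembled each other most. The share of its gene's counts that fell on an exon varied beyond binomial counting noise for 13797 of 34834 tested exons (39.6%), in 4386 of 6449 genes (likelihood ratio test on 5 degrees of freedom, Benjamini-Hochberg adjusted p under 0.05). The median range over the lines was 5.50 percentage points for the tested exons and 7.68 for those beyond noise. The range was at least 20 percentage points for 1661 of the exons beyond noise, in 1308 genes. Without lines 5 and 6 the count of exons beyond noise was 3998 (11.8% of the exons then tested). Leaving out 1 line, it was 9266 without line 6 (27.0% of the exons then tested), 10973 without line 4 (31.2%) and 12481 without line 5 (35.9%). It was 13460 (35.0%), 13503 (38.3%) and 12525 (34.2%) without line 1, 2 and 3 in turn. Lines 5 and 6 are the deepest libraries, and no other pair was left out, so the part of lost depth in the lower count was not tested. Line 6 was the line of highest share for 3913 and of lowest share for 3147 of the 13797 exons, more than any other line.

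Among genes with at least 100 counts in every line, the largest range lay in a gene with 2 counted exons. The exon at chr2:152392891-152393255 took 85.8%, 84.5%, 82.4%, 65.1%, 39.0% and 45.8% of the gene's counts in lines 1 to 6, on 91 to 287 counts per line. The other exon of that gene, at chr2:152365726-152368084, took the rest, 14.2% in line 1 and 61.0% in line 5. In another gene with 2 counted exons, the exon at chr12:91063295-91063751 took 68.6%, 65.2%, 56.6%, 63.1%, 27.4% and 30.05%, on 316 to 934 counts. The exon at chr1:39814018-39815049, in a gene with 11 counted exons, took 69.6%, 71.0%, 73.6%, 67.2%, 34.5% and 39.7%, on 470 to 1868 counts. In these 3 genes both lines 5 and 6 lay outside the range of lines 1 to 4.

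At other exons of large range, lines 5 and 6 again lay below lines 1 to 4, while line 4 or line 3 stood highest. The exon at chr11:47595444-47597047 took 39.0%, 39.8%, 33.3%, 66.9%, 29.5% and 22.0%, highest in line 4. The exon at chr9:35804448-35805321 took 57.0% in line 3, 36.1% to 40.9% in lines 1, 2 and 4, and 12.6% and 15.8% in lines 5 and 6.

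Well-covered genes were compared between each 2 lines. In 5479 exons of 457 genes with at least 500 counts in every line and at least 5 counted exons, the median difference in share between 2 lines was 0.694 percentage points for lines 5 and 6. It was 0.714 to 0.912 between any 2 of lines 1 to 4, and 1.01 to 1.36 between lines 5 or 6 and any of lines 1 to 4. These pairs were not compared at equal depth, and lines 5 and 6 are the deepest libraries. The first and last counted exons took 41.6%, 40.6%, 44.99%, 42.2%, 38.4% and 37.3% of a gene's counts on average in lines 1 to 6, over genes whose SD was 21.4 to 23.3 points. Lines 5 and 6 were lowest and line 3 highest, and lines 3 and 6 also stood at the ends of the length gradient. The part of coverage along the transcript in the exon differences was not tested.

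**Figure D5:**
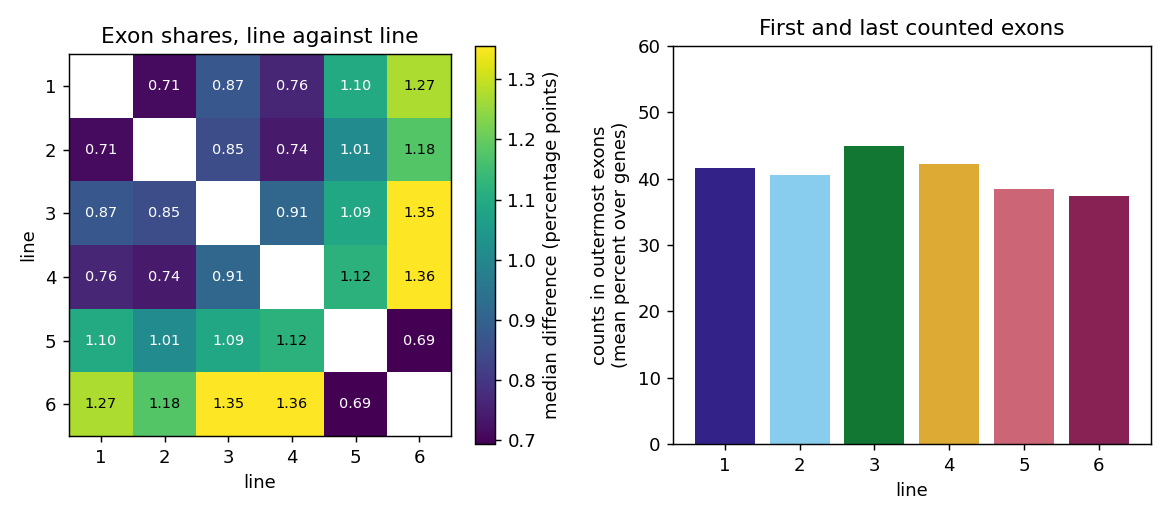
Left, median difference in exon share (percentage points) between each 2 lines over 5479 exons of 457 genes. Right, mean share of a gene's counts in its first and last counted exons, by line. Lines 5 and 6 differ least (0.694 points) and have the lowest bars (38.4% and 37.3%).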

How the data were processed

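RNA sequencing libraries of the 6 rhesus macaque lymphoblastoid lines were used, 1 per line. The deposited files hold whole-number raw counts, 1 per exon. Total RNA was extracted, cDNA fitted with adapters, size selected, amplified and sequenced on a Genome Analyzer II, per the labels' protocols, which name no strand marking. The aligner, counting tool and genome build were not given in the sources used here. An exon absent from a line's file was taken as 0, and 295 exons overlap an exon of another gene.

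Exon counts were summed per gene. Genes passed edgeR's default filter (minimum count 10, minimum total 15). The minimum count was applied in all 6 lines as the CPM that 10 counts give in a library of median size. CPM used TMM-scaled library sizes with a prior count of 2 on the log2 scale (edgeR 4.0.16, limma 3.58.1, R 4.3.3). Variation beyond counting noise was the deviance of an intercept-only edgeR fit with dispersion 0, on 5 degrees of freedom. It measures spread between libraries, not a condition. Exon shares were tested by a binomial likelihood ratio where each line's expected count was at least 5 on and off the exon. Both were tested on simulated data. The outermost-exon shares count exons with a mean share of at least 1%. DESeq2 1.42.0 gave alternative scalings.

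The members and lists were chosen with earlier results of these data known. Gene lists by symbol, cell type markers and promoter motifs could not be matched to identifiers and were not run. Positions, neighbours, length, density and exon shares took their place, a choice made after seeing the data. Genes described follow ranks: highest mean, largest SD, nearest to a group's mean, largest gap of 1 line. Those picked within a rank were chosen after their values were seen, as were the stable genes and the exons. At most 2 identifiers per direction were printed.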

Additional observations from a re-analysis of the deposited data

Results flagged for a closer look

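Of 74 sets of a gene's log2 CPM in the 6 lines, 7 (9.46%) had 1 line farther from its nearest neighbour than Dixon's critical value for 6 samples, measured as the gap over the whole range. None of 12 sets of exon shares and none of 10 sets of library-wide values did. Chance flags about 1 in 20 such sets, and the genes were chosen partly for their gaps. Line 6 was low at ENSG00000115590 (chr2:101974738-102011312), with a ratio of 0.676. Line 1 was high at ENSG00000197956 (chr1:151773699-151775341), with a ratio of 0.711, and low at ENSG00000126882 (chr9:133123287-133141727), with a ratio of 0.830. Line 4 was low at chr22:49315704-49317479, with a ratio of 0.696. Line 3 was low at chr1:153324191-153326628 (5.31 CPM against 27.1 to 40.7 elsewhere), with a ratio of 0.793. Line 1 was low at 2 neighbours on chromosome 14, at chr14:93470266-93493520 and chr14:93646832-93652786, with ratios of 0.655 and 0.666.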

How the results depend on the processing

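Counts of variable genes depended on which genes and exons entered. The number with an SD of at least 1 was 1703 of all 15673 identifiers with no filter on low counts, against 369 of 8136. Without the strongest exon of each gene it was 185, where 1-exon genes drop out and the share was not computed. Without the strongest exon 9 of the 20 most abundant genes remained in that list. The median r of neighbours up to 10 kb apart was 0.250, and 0.148 with length and gene density taken out and 0.153 without lines 5 and 6. Over the 500 genes of largest SD, the r of component 1 with depth was 0.668 (exact permutation p = 0.160). Exon shares beyond noise numbered 3998 without lines 5 and 6 (11.8% of the exons then tested). Leaving out each line in turn gave 6856 to 7472 genes beyond noise and 316 to 469 with an SD of at least 1. The median SD was then 0.39 to 0.43 and the neighbour r 0.218 to 0.284. Exon shares beyond noise then numbered 9266 to 13503 (27.0% to 38.3% of the exons tested). Of 132 chromosome 19 and long-gene deviations, 2 small ones changed sign: chromosome 19 in line 1 (0.07) was -0.07 with no filter, and the longest genes in line 4 (0.05) were -0.02 without line 3. For the 25 most variable genes, 301 of 309 SDs stayed within 1.5 times and the other 8 arose where lines were left out. A further 41 combinations gave no value because the gene was no longer tested. No paired analysis was possible because the line numbers pair nothing and there is 1 group. Depth limits the lowest levels most: genes near 20 CPM rest on few counts in the smallest library. Runs on gene lists were not made.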
